A study of Homo sapiens with 4 samples.

Results

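Lysosome and autophagy genes were examined in OPM2, an established human multiple myeloma line. The set was a list of 47 genes, chosen by name with earlier results of these data known. It held 24 of the autophagy core, 8 hydrolases and activators, 5 membrane and cholesterol export proteins, 7 proton pump genes and the 3 members of the TFEB family. All 47 had a probe set of their own on the array, out of 18377 genes that did, and the brightest such probe set on average over the 4 arrays stood for each gene. The study has 2 arrays of cells given VS-5584 (SB2343) and 2 of cells given DMSO, both for 24 h. The dose is 123 nM in the sample labels and 125 nM in the design text, which places it below the IC50 at 48 h. VS-5584 inhibits class I PI3 kinases and mTOR. All 4 cultures were grown in RPMI medium with serum, and one cell line is the whole model. The titles call the samples biological replicates and do not say how cultures were separated. The p-values and standard errors rest on the spread between these samples, pooled in part over genes.

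Autophagy encloses cytoplasm in a double membrane, the autophagosome, and delivers it to the lysosome, where acid hydrolases break it down. In fed cells mTOR complex 1 phosphorylates ULK1, which holds back the start of autophagy, and TFEB and TFE3, which keeps these transcription factors out of the nucleus. Dephosphorylated TFEB enters the nucleus and binds CLEAR elements near lysosome and autophagy genes. Plasma cells make large amounts of secreted protein, and autophagy is known as one of their routes of protein disposal.

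The CLEAR element is shown first because TFEB-family binding is the textbook link between mTOR and these genes. Promoter windows from RefSeq (GRCh38.p14, 250 bases before to 50 after a gene's start) matched 38 of the 47 genes. ASAH1 was among those without a window and could not be searched. The inner letters of the element, TCACGTGA, were found in the windows of 5 of the 38 genes (13.2%), against 2.23% of 8883 tested genes with a window and 0.980% of all 35116 windows. The E-box CACGTG, which lies inside them, was found for 7 of the 38 (18.4%), against 12.7% of tested genes and 7.26% of windows. Both read the same on both strands. Unlike the 8883, the 38 genes include some too dim to be tested, GAA among them. TFEB is already known to bind such elements near genes of this kind, so these shares are background and no result of the arrays. The 60-base stretches of the 5 genes with TCACGTGA follow, with these letters in capitals, each on the gene's strand.
ATG3 (chr3:112561925-112561984, minus strand): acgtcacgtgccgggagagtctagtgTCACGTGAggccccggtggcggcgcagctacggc
LAMP1 (chr13:113297184-113297243, plus strand): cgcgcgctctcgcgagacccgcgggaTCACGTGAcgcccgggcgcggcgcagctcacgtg
ATP6V0D1 (chr16:67481184-67481243, minus strand): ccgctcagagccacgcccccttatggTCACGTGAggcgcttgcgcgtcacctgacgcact
GAA (chr17:80101478-80101537, plus strand): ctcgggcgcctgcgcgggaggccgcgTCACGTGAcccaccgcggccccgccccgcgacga
MCOLN1 (chr19:7522556-7522615, plus strand): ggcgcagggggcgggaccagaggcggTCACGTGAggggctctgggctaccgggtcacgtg
The match begins 29 bases before the gene's start for LAMP1, 60 for ATP6V0D1, 77 for GAA and 42 for MCOLN1, and 4 bases after it for ATG3. The window of GLA, which of the 40 tested genes of the set had the largest difference below, held neither and is given whole, with no capitals.
GLA (chrX:101407876-101408175, minus strand): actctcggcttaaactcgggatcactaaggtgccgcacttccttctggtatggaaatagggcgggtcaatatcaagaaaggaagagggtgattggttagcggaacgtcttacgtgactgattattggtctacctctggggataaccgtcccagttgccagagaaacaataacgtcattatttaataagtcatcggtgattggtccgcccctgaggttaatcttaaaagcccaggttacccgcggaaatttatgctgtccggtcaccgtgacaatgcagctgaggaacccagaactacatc

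Levels are log2 of the deposited linear intensities. Median intensities over 28869 probe sets were 50.02 and 52.5 on the VS-5584 arrays, against 49.3 and 50.002 on the control arrays. VS-5584 replicate 2 stood apart from the other 3 arrays, at correlations of 0.980 to 0.985 against 0.993 to 0.996 among the others, so results are given for each VS-5584 array. The 8 plasma cell markers examined, among them SDC1, IRF4, XBP1 and TNFRSF17, were all above the limit for dim genes. Of 10 markers of other cells with a probe set, 4 (COL1A1, COL1A2, PECAM1 and HBB) were above it and 6, among them CD3E, CD14, MS4A1 and EPCAM, were below. Summed intensities of these 10 were 569 and 521 on the VS-5584 arrays, against 558 and 548 on the control arrays. Their part in the results was not tested. Arrays of bulk RNA cannot tell fewer cells of a kind from less RNA per cell.

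The differences of the lysosome and autophagy genes after VS-5584 ran from -0.61 for GLA to 0.47 for ASAH1 on the log2 scale. Genes in the lowest 40% by mean intensity were left out, and 40 of the 47 were tested among 11026 genes with limma, Benjamini-Hochberg adjusted over all of them. Of the 40, 0 passed an adjusted p of 0.05, against a background of 0% of all genes. Without VS-5584 replicate 1, where the lone VS-5584 array is assumed to vary like the controls, 8 of the 40 passed, beside 23.9% of all genes, and without any other single array 0 did. The smallest adjusted p over all genes was 0.0640. The 95% interval of the difference lay within 2-fold in either direction for each of the 40. The mean difference was under 0.2 log2 units in size for 29 of them, against 67.5% of all genes. At an unadjusted p under 0.05, 1 of the 40 was higher, ASAH1, beside 1.49% of all genes, and 1 was lower, GLA, beside 8.93% of all genes. The median log2 difference was -0.012 over the 40 genes and -0.064 over all genes.

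The 2 VS-5584 arrays did not overlap the controls in the higher direction for 3 of the 40 genes (7.5%), beside 14.7% of all genes. In the lower direction they did not overlap for 9 of the 40 (22.5%), beside 29.2% of all genes. The mean difference exceeded the gap between replicates of both groups for 7 of the 40, beside 25.8% of all genes. These 7 were ASAH1, GLA, ATG3, ATG7, LAMP2, ATP6V1H and TFE3. The median over the 40 genes was 0.034 on VS-5584 replicate 1 and -0.097 on VS-5584 replicate 2, where the median of all genes was -0.0022 and -0.14. For 17 of the 40 genes the 2 VS-5584 arrays lay on opposite sides of the control mean.

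**Figure D1:**
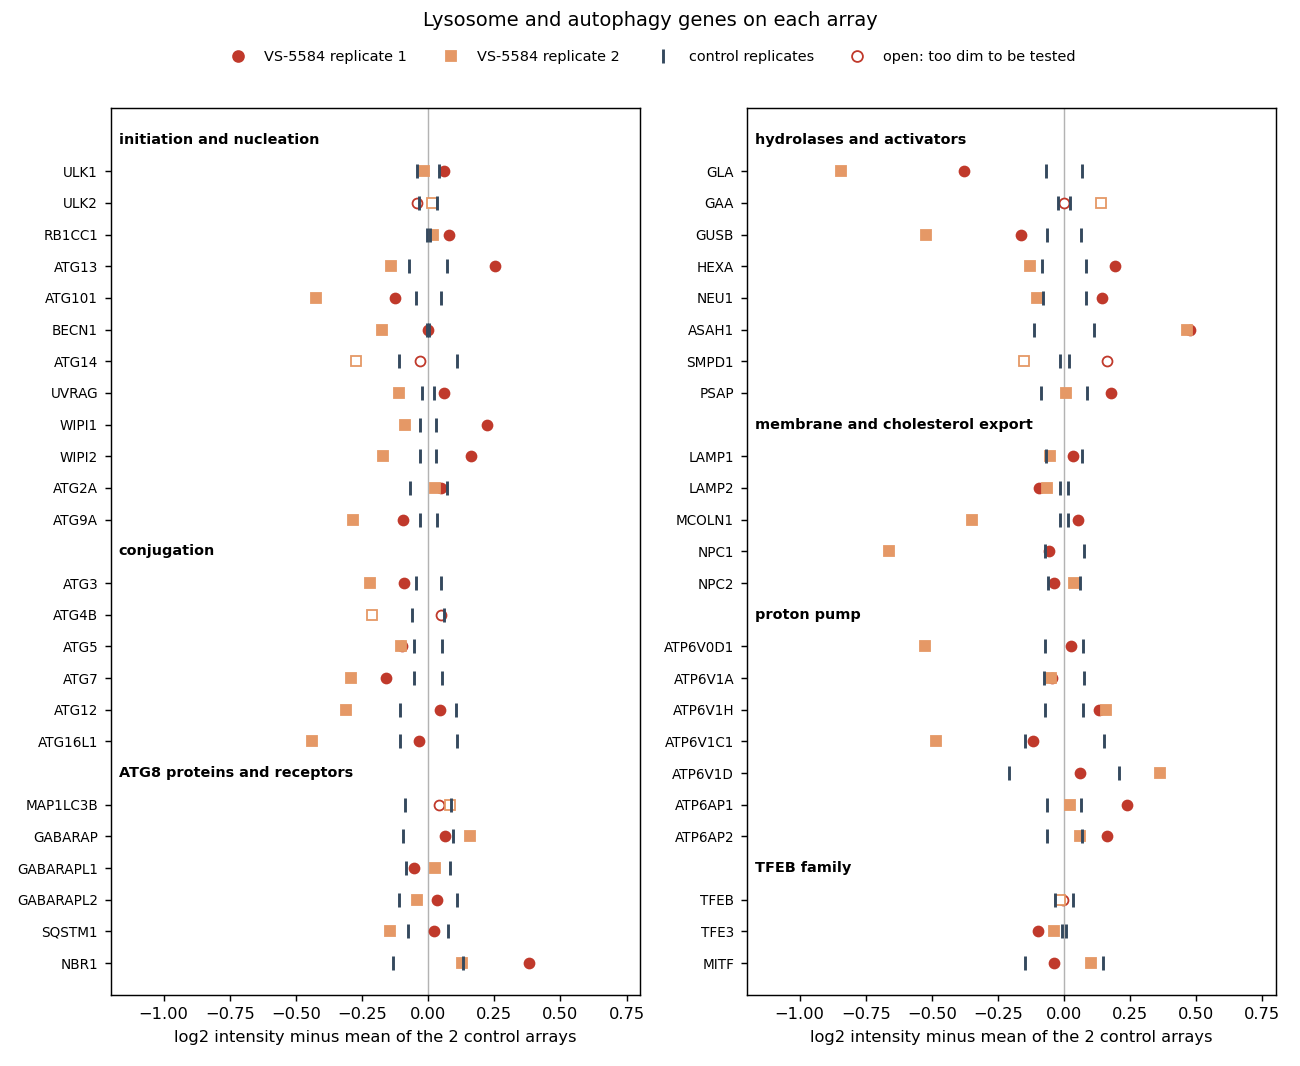
Each row is a lysosome or autophagy gene, grouped by role, and each mark is 1 array. The x axis is the log2 intensity minus the mean of the 2 control arrays. Filled circles and squares are VS-5584 replicates 1 and 2, bars are the control replicates, and open marks are the 7 genes too dim to be tested. ASAH1 sits right of its controls on both VS-5584 arrays, GLA and GUSB sit left of theirs, and most other genes lie within 0.2 units of the control mean on average.

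Among hydrolases and their activators, ASAH1 and GLA differed most, in opposite directions. ASAH1 encodes acid ceramidase, which splits ceramide into sphingosine and a fatty acid. It stood at log2 levels of 9.39 and 9.38 on the VS-5584 arrays, against 9.03 and 8.80 on the control arrays. Both VS-5584 arrays were above both controls and lay 0.011 apart. The difference was 0.47 ± 0.14 log2 units (SE; 95% interval 0.16 to 0.78), a 1.38-fold higher level (limma unadjusted p = 0.0076, adjusted p = 0.351). GLA encodes alpha-galactosidase A, which removes galactose from globotriaosylceramide and is deficient in Fabry disease. It stood at 8.17 and 7.71 on the VS-5584 arrays, against 8.62 and 8.49 on the control arrays. Both VS-5584 arrays were below both controls, replicate 2 the further. The difference was -0.61 ± 0.17 (95% interval -0.99 to -0.23), 1.53-fold lower (limma unadjusted p = 0.0054, adjusted p = 0.319). It was -0.38 without VS-5584 replicate 2 and -0.85 (adjusted p = 0.0020) without VS-5584 replicate 1.

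GUSB encodes beta-glucuronidase, which trims glycosaminoglycans. It stood at 8.65 and 8.29 on the VS-5584 arrays, against 8.75 and 8.88 on the control arrays, so the groups did not overlap. The difference was -0.34 ± 0.16 (limma unadjusted p = 0.0541, adjusted p = 0.482) and was -0.16 without VS-5584 replicate 2. Another 7 probe sets are annotated to GUSB together with other genes, and copies of this kind make its signal uncertain. PSAP, the precursor of the saposins that present lipids to hydrolases, differed by 0.094 ± 0.14. HEXA, a subunit of beta-hexosaminidase, and NEU1, a sialidase, differed by 0.032 and 0.019, with higher values on VS-5584 replicate 1 and lower values on replicate 2 than the control means. GAA, the enzyme that degrades glycogen, and SMPD1, acid sphingomyelinase, were too dim to be tested. GAA stood at 5.13 and 5.27 on the VS-5584 arrays, against 5.15 and 5.11 on the control arrays, and SMPD1 at 5.74 and 5.43 on the VS-5584 arrays, against 5.56 and 5.60 on the control arrays. The 6 tested genes of this role had a median of 0.025, with 0.16 on VS-5584 replicate 1 and -0.12 on replicate 2.

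**Figure D2:**
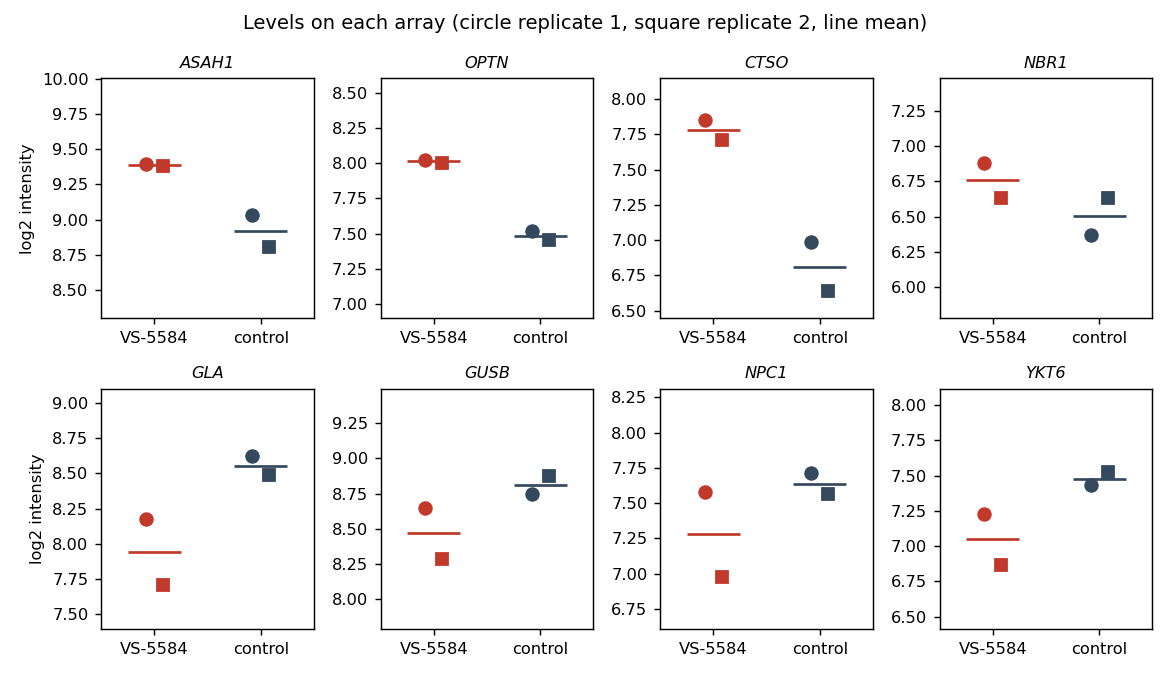
Log2 intensity on each array for 4 genes with higher and 4 with lower means after VS-5584, the VS-5584 arrays left and the control arrays right in each panel. Circles are replicate 1, squares replicate 2 and lines means, and each y axis spans the same number of log2 units. ASAH1, OPTN and CTSO show both VS-5584 arrays above both controls, while NBR1 touches its controls and NPC1 has its low value on 1 VS-5584 array.

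Among proteins of the lysosomal membrane and of cholesterol export, all 5 tested genes had means below control, by 0.36 units at most, though LAMP1, LAMP2 and NPC2 were above it after median centring or cyclic loess. Of all genes tested, 62.7% had means below control. NPC1 encodes the membrane protein that moves cholesterol out of the lysosome. It stood at 7.58 and 6.98 on the VS-5584 arrays, against 7.71 and 7.56 on the control arrays. Replicate 1 lay between the controls and replicate 2 was below both, so the groups overlapped. The difference was -0.36 ± 0.19 (limma unadjusted p = 0.0941, adjusted p = 0.547), and -0.056 without VS-5584 replicate 2. NPC2, the soluble partner that hands cholesterol to NPC1, stood at 9.09 and 9.17 on the VS-5584 arrays, against 9.07 and 9.19 on the control arrays, inside the control range.

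MCOLN1, the calcium channel TRPML1, differed by -0.15 ± 0.16, with 0.053 on VS-5584 replicate 1 and -0.35 on replicate 2. LAMP1 and LAMP2, the heavily glycosylated proteins that line the lysosomal membrane, differed by -0.0099 ± 0.13 and -0.081 ± 0.13. LAMP2 stood at 8.94 and 8.97 on the VS-5584 arrays, against 9.02 and 9.05 on the control arrays, without overlap. The median of the role was -0.081, and it was 0.071 after cyclic loess, so its direction depended on the scaling.

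The proton pump (V-ATPase) acidifies the lysosome and also takes part in the sensing of amino acids by mTOR complex 1. Its 7 genes split, 4 with means above control and 3 below (ATP6V1A moved above it after median centring or cyclic loess), with a median of 0.11. ATP6V1C1, subunit C of the catalytic V1 sector, stood at 7.52 and 7.15 on the VS-5584 arrays, against 7.79 and 7.49 on the control arrays. ATP6V0D1, subunit d of the membrane V0 sector, stood at 7.47 and 6.92 on the VS-5584 arrays, against 7.37 and 7.51 on the control arrays. For both genes VS-5584 replicate 1 lay inside the control range and replicate 2 below it. Their differences were -0.30 ± 0.17 (limma adjusted p = 0.556) and -0.25 ± 0.18 (adjusted p = 0.642). Without VS-5584 replicate 2 they were -0.12 and 0.028.

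ATP6V1D, subunit D of the rotor, stood at 8.50 and 8.80 on the VS-5584 arrays, against 8.65 and 8.23 on the control arrays, a difference of 0.21 ± 0.17 (limma adjusted p = 0.680) smaller than the gap between its controls. Without 1 array it ran from 0.0024 (without control replicate 2) to 0.42 (without control replicate 1). ATP6V1H, the regulatory subunit H, stood at 7.61 and 7.63 on the VS-5584 arrays, against 7.40 and 7.55 on the control arrays. It was the 1 pump gene whose groups did not overlap, with a difference of 0.15 ± 0.13. The accessory proteins ATP6AP1 and ATP6AP2 (the prorenin receptor) differed by 0.13 ± 0.14 and 0.11 ± 0.13, and ATP6V1A, the catalytic A subunit, by -0.049 ± 0.13. After cyclic loess ATP6V1H, ATP6AP1 and ATP6AP2 differed by 0.32, 0.27 and 0.25, each at an unadjusted p under 0.05, beside 5.61% of all genes higher by that rule. Their limma adjusted p was then 0.356, 0.343 and 0.378.

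**Figure D3:**
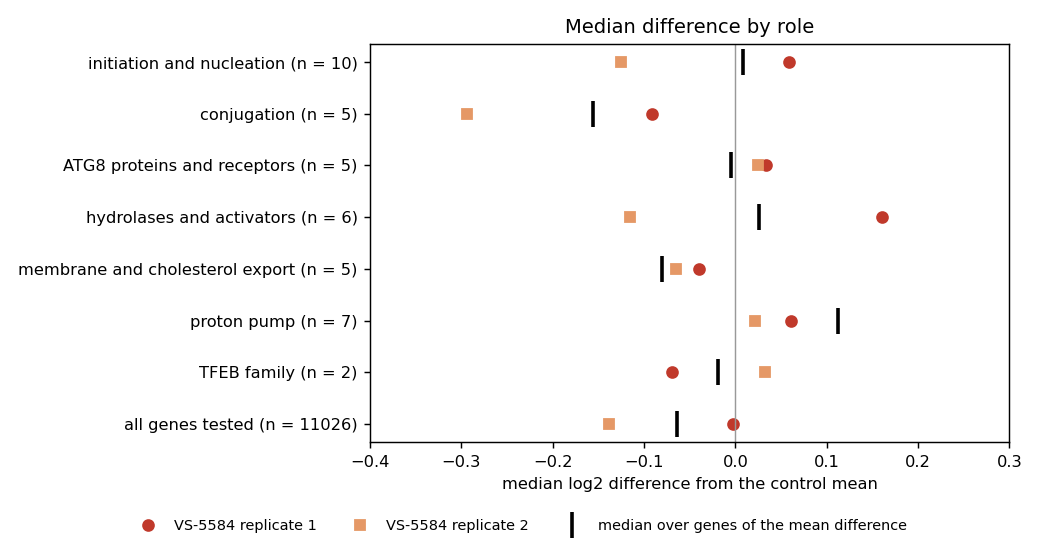
Median log2 difference from the control mean over the tested genes of each role, with all genes tested in the last row. Circles are VS-5584 replicate 1, squares replicate 2, and bars the median of the mean difference. Conjugation genes, membrane and cholesterol export genes and all genes tested lie below 0 on both arrays. The 7 proton pump genes of the set and the ATG8 proteins and receptors lie above 0 on both. Initiation genes, hydrolases and the TFEB family lie on opposite sides on the 2 arrays.

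Autophagy starts with the ULK1 kinase complex and with the lipid kinase complex around BECN1. The 10 tested genes of this role had a median of 0.0080, with 5 above and 5 below control on average. ULK1, the kinase that mTOR holds in check, stood at 5.89 and 5.81 on the VS-5584 arrays, against 5.87 and 5.79 on the control arrays, and the groups overlapped. ULK2, its relative, was too dim to be tested. ATG101, which stabilises the ULK1 complex, stood at 6.44 and 6.14 on the VS-5584 arrays, against 6.52 and 6.61 on the control arrays. Both VS-5584 arrays were below both controls. The difference was -0.28 ± 0.15 (limma unadjusted p = 0.0932, adjusted p = 0.546), and -0.13 without VS-5584 replicate 2.

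The other parts of the ULK1 complex, ATG13 and RB1CC1 (FIP200), differed by 0.056 ± 0.16 and 0.050 ± 0.13. ATG9A, the scramblase whose vesicles seed the membrane, stood at 6.93 and 6.74 on the VS-5584 arrays, against 6.99 and 7.06 on the control arrays, a difference of -0.19 ± 0.14 (limma adjusted p = 0.633) with no overlap, or -0.093 without VS-5584 replicate 2. BECN1 differed by -0.087 ± 0.13, and its partner UVRAG by -0.026 ± 0.13, while ATG14, the partner that directs the complex to autophagy, was too dim to be tested. WIPI1 and WIPI2, which read the lipid made by that complex, differed by 0.066 and -0.0047. Both were above control on VS-5584 replicate 1 and below it on replicate 2. ATG2A, which carries lipid into the growing membrane, differed by 0.037 ± 0.13.

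The conjugation genes attach ATG8 proteins to the membrane, and all 5 tested had means below control, beside 62.7% of all genes, though ATG5 was above it after median centring or cyclic loess. ATG7 is the E1-like enzyme of the system. It stood at 6.27 and 6.13 on the VS-5584 arrays, against 6.37 and 6.48 on the control arrays, without overlap, and differed by -0.23 ± 0.13 (limma adjusted p = 0.566). ATG16L1, which places the conjugating enzyme on the membrane, stood at 6.38 and 5.97 on the VS-5584 arrays, against 6.52 and 6.30 on the control arrays. Replicate 1 lay inside the control range and replicate 2 below it, and the difference was -0.24 ± 0.17 (adjusted p = 0.626), or -0.035 without VS-5584 replicate 2. ATG3, the E2-like enzyme, differed by -0.16 ± 0.13 and ATG5 by -0.10 ± 0.13, both without overlap. ATG12, the ubiquitin-like partner of ATG5, differed by -0.13 ± 0.16, with overlap. The protease ATG4B, which trims ATG8 proteins, was too dim to be tested. The role had a median of -0.16, with -0.092 on VS-5584 replicate 1 and -0.29 on replicate 2, beside -0.064 over all genes. After cyclic loess the median was -0.18, with ATG16L1 at -0.20, ATG7 at -0.19, ATG12 at -0.18, ATG3 at -0.036 and ATG5 at 0.044.

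The ATG8 proteins coat the autophagosome, and receptors such as SQSTM1 (p62) and NBR1 tie cargo to them. GABARAP stood at 9.73 and 9.82 on the VS-5584 arrays, against 9.76 and 9.57 on the control arrays, with overlap. GABARAPL1 stood at 6.27 and 6.35 on the VS-5584 arrays, against 6.24 and 6.41 on the control arrays, inside the control range. GABARAPL2 stood at 8.96 and 8.89 on the VS-5584 arrays, against 8.82 and 9.04 on the control arrays, also inside it. MAP1LC3B, which encodes LC3B and was too dim to be tested, stood at 5.47 and 5.51 on the VS-5584 arrays, against 5.34 and 5.51 on the control arrays. The differences of the 3 tested proteins were 0.11 ± 0.14, -0.014 ± 0.14 and -0.0052 ± 0.14, and their 95% intervals together ran from -0.32 to 0.42. These genes have near-identical relatives or copies, and the files do not say how far a probe set separates them.

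SQSTM1 stood at 6.82 and 6.65 on the VS-5584 arrays, against 6.72 and 6.87 on the control arrays, a difference of -0.061 ± 0.14 with overlap. NBR1 stood at 6.88 and 6.63 on the VS-5584 arrays, against 6.37 and 6.64 on the control arrays. Replicate 1 was above both controls and replicate 2 just under the higher one. The difference was 0.25 ± 0.15 (limma unadjusted p = 0.130, adjusted p = 0.571). After cyclic loess it was 0.34 (unadjusted p = 0.0179, adjusted p = 0.279 by limma). Without 1 array it ran from 0.12 (without control replicate 1) to 0.39 (without control replicate 2), and it was 0.13 without VS-5584 replicate 1.

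The TFEB family itself was close to the limit of what was tested. TFEB, too dim to be tested, stood at 5.40 and 5.38 on the VS-5584 arrays, against 5.36 and 5.44 on the control arrays, inside the control range. TFE3 stood at 5.55 and 5.62 on the VS-5584 arrays, against 5.65 and 5.66 on the control arrays, without overlap. Its difference was -0.068 ± 0.13 (95% interval -0.36 to 0.22, limma adjusted p = 0.862), and 0.048 after median centring. MITF, the family member best known from melanocytes, stood at 5.68 and 5.82 on the VS-5584 arrays, against 5.86 and 5.57 on the control arrays, inside the control range. These are mRNA levels, and neither phosphorylation nor location of the proteins was measured. Of the genes with TCACGTGA shown above, the 4 that were tested differed by -0.16 (ATG3), -0.0099 (LAMP1), -0.25 (ATP6V0D1) and -0.15 (MCOLN1). In the same order they were at -0.092, 0.035, 0.028 and 0.053 without VS-5584 replicate 2. After cyclic loess they were at -0.036, 0.12, -0.085 and -0.016. Means below control were found for 62.7% of all genes tested. Over all tested genes with a window, the median difference was -0.10 for 198 genes with TCACGTGA and -0.075 for genes without it.

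**Figure D4:**
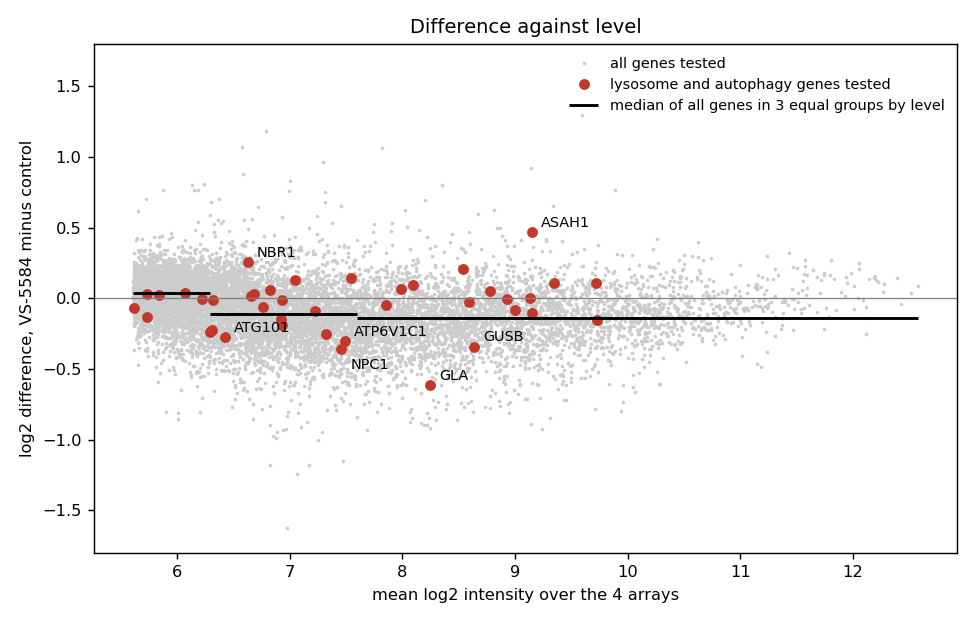
Log2 difference (VS-5584 minus control) against mean log2 intensity over the 4 arrays. Grey points are the 11026 genes tested, red points the 40 lysosome and autophagy genes among them, and black lines the median of all genes in 3 equal groups by level. The lines lie at 0.036, -0.11 and -0.14 from dim to bright, and the red points scatter on both sides of them.

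The difference moved with signal level over all genes. Their median was 0.036 among the dimmest 3675 genes, -0.11 among the middle 3675 and -0.14 among the brightest 3676. The lysosome and autophagy genes had medians of -0.0047 (7 genes), -0.061 (17 genes) and -0.0029 (16 genes) in the same groups. Among the brightest they ran from GLA at -0.61 to ASAH1 at 0.47.

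A further 117 lysosome and autophagy genes in 7 lists were examined beside these, of which 91 were tested. The lists were chosen with earlier results of these data known, so their counts are no independent support. Of the 91, 0 passed an adjusted p of 0.05, 3 were higher and 1 lower at an unadjusted p under 0.05, beside 1.49% and 8.93% of all genes, and the median was -0.014. The 3 higher genes were OPTN, VPS39 and CTSO, and the lower one was YKT6. OPTN, a receptor that ties damaged mitochondria and other cargo to ATG8 proteins, stood at 8.02 and 8.002 on the VS-5584 arrays, against 7.52 and 7.45 on the control arrays. The groups did not overlap. The difference was 0.53 ± 0.13 (limma unadjusted p = 0.0025, adjusted p = 0.285). CTSO, a cysteine protease, differed by 0.97 ± 0.15 (limma adjusted p = 0.197). CTSO passed an adjusted p of 0.05 under 7 of the 12 alternatives, after median centring (0.0015) and cyclic loess (0.025) among them, and OPTN under 3, among them median centring (0.027). Without VS-5584 replicate 1, 16 of the 91 passed, 3 higher and 13 lower, beside 23.9% of all genes. CTSC, the protease that activates granule proteases, differed by -0.29 ± 0.14.

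In the fusion machinery YKT6, a SNARE of the autophagosome, stood at 7.23 and 6.87 on the VS-5584 arrays, against 7.43 and 7.52 on the control arrays. VPS39, a part of the HOPS tether that brings autophagosome and lysosome together, stood at 8.47 and 8.36 on the VS-5584 arrays, against 8.12 and 8.11 on the control arrays. The groups did not overlap for either gene, and the differences were -0.43 ± 0.15 (limma adjusted p = 0.417) and 0.30 ± 0.13 (adjusted p = 0.476). YKT6 was at -0.25 without VS-5584 replicate 2 and at -0.61 (adjusted p = 0.0070) without VS-5584 replicate 1. PIK3C3, the lipid kinase that works with BECN1, differed by 0.28 ± 0.13 (limma adjusted p = 0.504). RUBCN, which restrains PIK3C3, differed by -0.32 ± 0.16 (limma adjusted p = 0.530), less than the gap of 0.35 between its controls. Without VS-5584 replicate 2 they were at 0.31 and -0.18. CALCOCO2 (NDP52), a receptor for bacteria and mitochondria, differed by -0.29 ± 0.15 (limma adjusted p = 0.535), or -0.12 without VS-5584 replicate 2.

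Among other hydrolases 0 of 17 tested genes had an unadjusted p under 0.05, with GALC, which degrades galactosylceramide, at 0.24 ± 0.16 and ARSB, a sulfatase, at -0.23 ± 0.16. Among other membrane and sorting proteins 0 of 17 did, with SCARB2 (LIMP2), the carrier of glucocerebrosidase, at 0.27 ± 0.14 and GNPTAB, which builds the mannose-6-phosphate tag, at -0.20 ± 0.14. Of 11 other pump subunits, 3 had means above control and 8 below, beside 62.7% of all genes below. Their median was -0.065, against 0.11 for the 7 pump genes of the set. It was 0.015 on VS-5584 replicate 1 and -0.15 on replicate 2. Among these 11 subunits 0 had an unadjusted p under 0.05, with ATP6V0A1 at -0.27 ± 0.16 and ATP6V1B2 at -0.25 ± 0.17. The limma adjusted p of the 6 genes named in this paragraph was at least 0.535 with all 4 arrays. Of the 6, SCARB2, ARSB, ATP6V0A1 and ATP6V1B2 passed without VS-5584 replicate 1.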

How the data were processed

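RNA of 4 OPM2 cultures was labelled as cDNA and read on 4 one-colour arrays (2 VS-5584, 2 control). The authors deposited 1 intensity per probe set and array on a linear scale. The submitters' processing notes name RMA, with no version. The background correction, the return to the linear scale and any added constant are not given in the sources used here. An added constant would shrink differences of dim genes. The few arrays limit precision.

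Intensities were turned into log2 values and not normalized again. Of 28869 probe sets, 19310 carried 1 gene in the platform annotation, 1752 several and 7807 none listed. Symbols were updated by gene ID through RefSeq (GRCh38.p14), which held 19279 of the 19310. Genes below a mean intensity of 48.9 were left out, and the other 11026 were tested with limma 3.58.1 in R 4.3.3 (lmFit, eBayes, two-sided, Benjamini-Hochberg). The SE given draws each gene's own variance toward a variance shared by all genes tested. LAMP2, whose replicates lay 0.031 (VS-5584) and 0.030 (control) apart, had an SE of 0.13. Figures were drawn with matplotlib 3.10.9. On simulated data for 11026 genes, limma called 100% of 100 genes changed 4-fold and 90% of 100 changed 2-fold. The simulated noise was independent between arrays, with no array standing apart as VS-5584 replicate 2 did. The simulation therefore does not give the power for these arrays, where 10 genes differed by more than 2-fold and 0 passed. A count of non-overlapping arrays has no test, and 2 arrays against 2 cannot go below an exact two-sided p of 0.333.

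The genes, roles and lists were chosen with earlier results of these data known. Values for each array were given for the 12 tested genes with the smallest p, the ATG8 proteins and receptors and the TFEB family, and also for some others chosen after their values were seen. Of each of the 7 other lists the 2 genes with the smallest p were named. The 12 alternatives were a replicate block, averaged probe sets, cyclic loess, an intensity trend, 2 other filters on dim genes, median centring, subtracting 16 and leaving out each array.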

Additional observations from a re-analysis of the deposited data

How the results depend on the processing

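With all 4 arrays, 0 genes passed an adjusted p of 0.05 in the fit reported (limma), with 1149 at an unadjusted p under 0.05. The count was 432 with the replicate block, 99 after median centring, 20 after cyclic loess, 58 with the lowest 60% of genes left out, 80 with an intensity trend, 2 after subtracting 16, and 0 with no filter or averaged probe sets. Without 1 array it ran from 2 (without VS-5584 replicate 2) to 2636 (without VS-5584 replicate 1). Among the lysosome and autophagy genes, GLA passed with the replicate block (adjusted p = 0.0070), and 8 genes passed without VS-5584 replicate 1: GLA, ASAH1, GUSB, NPC1, ATG101, ATG16L1, ATP6V0D1 and ATP6V1C1. Of the 7 other lists, CTSO passed with the replicate block (4.2e-06), median centring (0.0015), cyclic loess (0.025), the lowest 60% left out (0.013), the trend (0.016) and without VS-5584 replicate 1 (0.0034) or control replicate 1 (0.0079), and OPTN with the block (0.025), median centring (0.027) and without VS-5584 replicate 1 (0.014). The block raised the lower genes at an unadjusted p under 0.05 to 4, beside 13.6% of all genes. The labels give control and VS-5584 samples the same replicate numbers and do not say whether these were pairs. The deviations of samples with the same number correlated at 0.16 over genes, which does not settle it. GLA kept its direction and an unadjusted p under 0.05 in all 12 alternatives, and ASAH1 in all but 1, the fit without control replicate 2.

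At an unadjusted p under 0.05, 7 genes were higher after cyclic loess, beside 5.61% of all genes: ASAH1, NBR1, PSAP, WIPI1, ATP6V1H, ATP6AP1 and ATP6AP2. By the same rule 2 genes were higher after median centring, beside 6.97% of all genes. Without 1 array this count ran from 0 to 2 for higher and from 1 to 11 for lower genes, the 11 without VS-5584 replicate 1, beside 32.7% of all genes. Non-overlapping higher genes numbered 15 of 40 after median centring (27.9% of all genes) and 13 after cyclic loess (22.6%). Non-overlapping lower genes numbered 5 after median centring (19.7%) and 6 after cyclic loess (22.5%). Without 1 array the higher count ran from 5 without VS-5584 replicate 1 (25.3%) to 15 without VS-5584 replicate 2 (33.3%), and the lower count from 9 without VS-5584 replicate 2 (34.6%) to 23 without VS-5584 replicate 1 (60.1%). Median centring shifts each array by a constant, so it moved the log2 difference of every gene tested by the same 0.12. The median over the 40 genes was then 0.10, beside 0.052 over all genes. The medians by role were 0.11 for ATG8 proteins and receptors, 0.098 for the TFEB family, 0.036 for membrane and cholesterol export and 0.23 for the proton pump. After cyclic loess they were 0.15 for ATG8 proteins and receptors, 0.071 for membrane and cholesterol export and 0.25 for the proton pump. Without 1 array the medians ran from -0.097 to 0.070 for ATG8 proteins and receptors, -0.13 to 0.059 for initiation, -0.096 to -0.039 for membrane and cholesterol export and 0.021 to 0.074 for the proton pump.

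Genes whose sign turned lay within 0.11 of 0 in the fit reported, apart from ATP6V0D1, MCOLN1 and ATG12 without VS-5584 replicate 2. After median centring the values were ATG5 0.014, ATP6V1A 0.068, BECN1 0.029, GABARAPL1 0.10, GABARAPL2 0.11, LAMP1 0.11, LAMP2 0.036, NPC2 0.12, SQSTM1 0.056, TFE3 0.048, UVRAG 0.090 and WIPI2 0.11. After cyclic loess they were ATG5 0.044, ATP6V1A 0.12, BECN1 0.071, GABARAPL1 0.024, GABARAPL2 0.15, LAMP1 0.12, LAMP2 0.071, MITF -0.021, NPC2 0.15, SQSTM1 0.049, ULK1 -0.015, UVRAG 0.14 and WIPI2 0.017. Without 1 array the log2 differences ran over these ranges: ATG12 -0.31 to 0.044, ATG13 -0.14 to 0.25, ATG2A -0.032 to 0.11, ATP6V0D1 -0.53 to 0.028, ATP6V1A -0.13 to 0.028, BECN1 -0.18 to 0.00039, GABARAPL1 -0.097 to 0.070, GABARAPL2 -0.12 to 0.10, HEXA -0.13 to 0.19, LAMP1 -0.079 to 0.059, MCOLN1 -0.35 to 0.053, MITF -0.12 to 0.18, NEU1 -0.10 to 0.14, NPC2 -0.062 to 0.061, SQSTM1 -0.15 to 0.024, ULK1 -0.020 to 0.061, UVRAG -0.11 to 0.059, WIPI1 -0.089 to 0.22 and WIPI2 -0.17 to 0.16. The turns of sign after median centring come from its common shift of 0.12. The cause of the others was not tested.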
